A study of Drosophila melanogaster with 34 samples.

Results

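The Niemann-Pick type C genes Npc1a, Npc1b and Npc2a to Npc2h, 10 genes in the RefSeq gene table of Drosophila melanogaster, were followed through newly hatched larvae of 6 laboratory populations. Members were taken as every probe set annotated to a symbol that begins with Npc1 or Npc2, whatever its values. Of 18769 probe sets, 9 met this rule, 1 for each gene except Npc1b, which was not analysed here. All 9 were tested, the requirement being a log2 value of at least 4 on at least 5 of the 34 arrays. For 7 of them every array lay at 4 or more, while Npc2h reached that level on 32 arrays and Npc2c on 13, of which 11 were of water-soaked larvae. Only 2 of 17 ethanol arrays reached it, too few for the requirement. Npc2c therefore passed through the group in which it is high, and its test is read with that in mind. Every count of members called for exposure at this filter includes Npc2c. The Npc2b probe set is of the kind that Affymetrix marks as matching more than 1 transcript, so related transcripts may add to it.

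NPC1 proteins are large membrane proteins with a sterol-sensing domain, and NPC2 proteins are small soluble lipid-binding proteins of the MD-2-related lipid recognition type. In mammals NPC2 takes cholesterol inside the late endosome and lysosome and hands it to NPC1 in the limiting membrane, from which sterol reaches the rest of the cell. Insects do not make sterols. They take them from food and use them for membranes and for the moulting hormone ecdysone, so that loss of Npc1a in flies blocks sterol in the endosome and starves ecdysone synthesis, and Npc1b serves sterol uptake in the midgut. Flies have several NPC2 genes: Npc2a and Npc2b act together in sterol homeostasis, and Npc2a, Npc2e and Npc2h proteins have been reported to bind bacterial cell wall components.

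The 6 populations came from 1 outbred base population and had been kept for over 300 generations. R1 and R2 were the controls on standard medium, E1 and E2 were kept on medium with 12% ethanol, and M1 and M2 were in the variable regime, which used vials of both media in each generation. No mutation or transgene was involved, and all flies were reared on standard medium at 25 °C for at least 2 generations before laying. Eggs laid over 3 hours were then covered for 15 hours with distilled water or with 18% ethanol, which came to about 12% with the laying medium, and each array holds RNA pooled from 50 to 200 larvae that hatched afterwards. There were 6 arrays of water-soaked and 6 of ethanol-soaked larvae for the control regime, as many for the ethanol regime, and 5 of each for the variable regime. The labels place extraction in 3 blocks on different days. Each title ends in 1, 2 or 5, and this number was read as the extraction day, a reading the labels do not spell out and on which all results by day rest. M1 has no water array of day 2 and M2 no ethanol array of day 1. Values are log2 expression, and the level of a probe set is compared only with itself, since probe sets differ in how strongly they bind. In pooled whole larvae, fewer cells of a type and less RNA per cell cannot be told apart.

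Some day 5 labels stood against the data. Judged by deviations over all tested probe sets, the arrays of days 1 and 2 lay closest to arrays of their own population in 21 of 22 cases. On day 5 all 4 control arrays did so, but 7 of the 8 arrays of the variable and ethanol regimes lay closest to the population of the same number in the other of these regimes. The regime results described gene by gene below are therefore also given without day 5 and with the day 5 labels of these regimes interchanged. The single exception of the earlier days was the ethanol array of R2 on day 1, which lay closest to E2, and it also stands apart for Npc2d and Npc2f. Over all arrays it held the lowest value of Npc2c, Npc2e and Npc2f and the highest of Npc1a and Npc2g. Array medians ran from 3.89 to 4.02. All 8 midgut and 4 Malpighian tubule markers with a probe set passed the filter, and egg-shell and yolk genes were near the floor, with 9 of 10 such probe sets below 4 on all arrays.

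**Figure D1:**
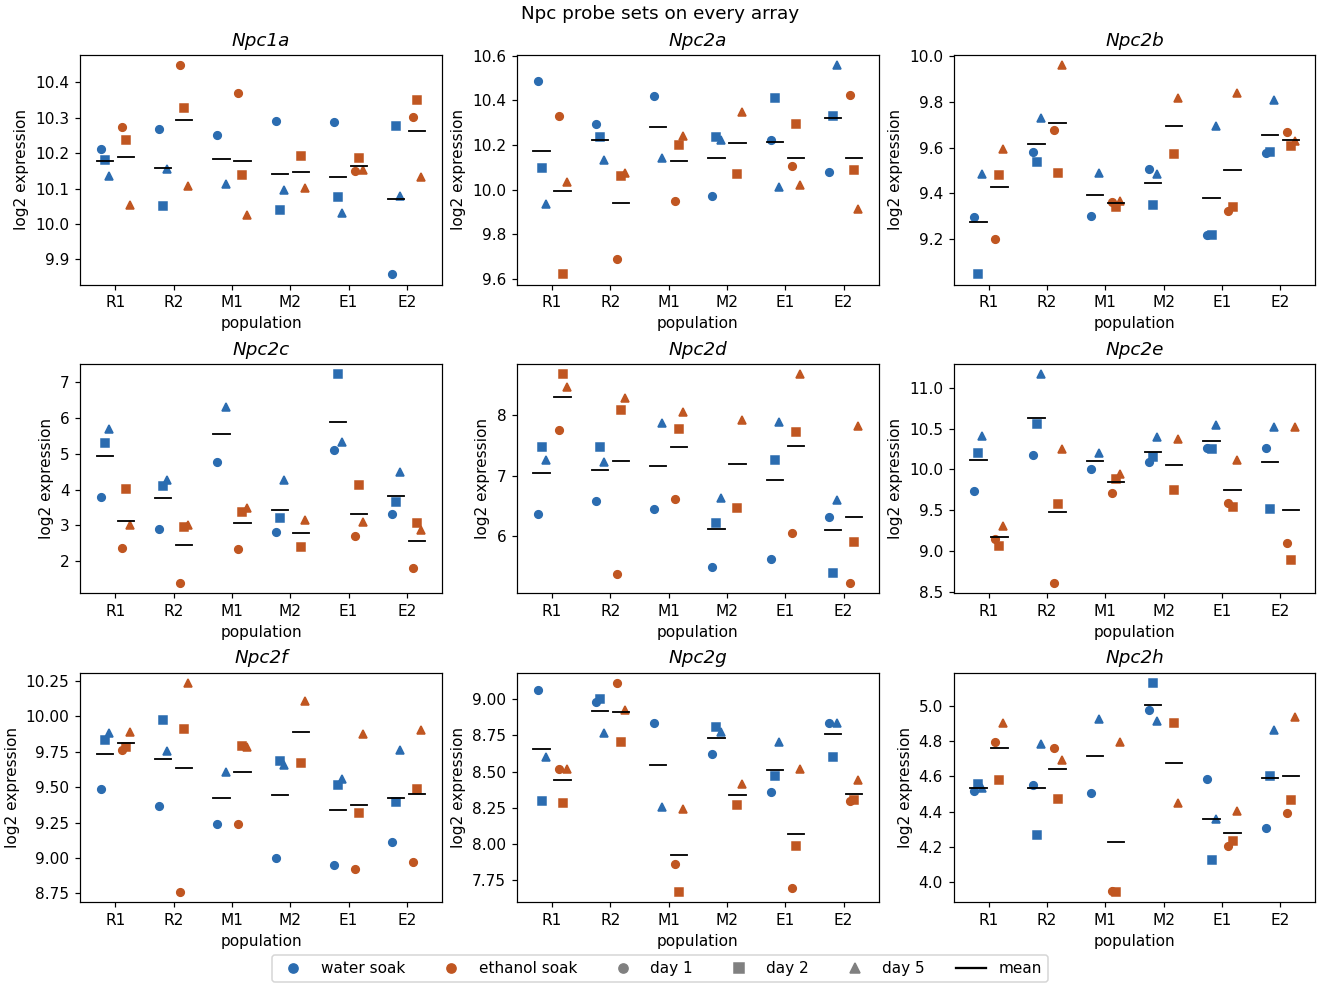
Log2 expression of the 9 Npc probe sets (vertical axes, scaled separately) on each of 34 arrays, by population (horizontal axes), with water arrays in blue, ethanol arrays in orange, days as symbols and group means as black lines. Npc2c is lower on the ethanol array in 16 of 16 pairs, and day 1 values of Npc2d and Npc2f lie low in most groups.

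Soaking in ethanol went with lower Npc2c, Npc2e and Npc2g and with higher Npc2d, averaged over the 6 populations. These were 4 of the 9 members, beside a background of 31.2% of all 9729 tested probe sets in that comparison (15.2% higher and 16.0% lower). Npc2c is counted among them although it passed the filter through the water arrays. The median log2 difference of the 9 members was -0.09 and that of all tested probe sets 0, and the median sizes without sign were 0.13 and 0.11. The members' median lay near that of all probe sets, and single members moved in opposite directions. The plot of the responses shows them by regime.

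Npc2c, 1 of 3 neighbouring Npc2 genes, showed the largest response of the family. Its value on water arrays was lowest at 2.81, had a median of 4.26 and was highest at 7.23, with a mean of 4.50 ± 1.22 (SD, n = 17). On ethanol arrays it was lowest at 1.39, had a median of 3.01 and was highest at 4.14, with a mean of 2.89 ± 0.70 (SD, n = 17). The groups overlapped across populations, yet in each of the 16 pairs of arrays of 1 population and day the ethanol array was the lower, by between -0.60 and -3.09. Npc2c fell by 1.78 ± 0.16 on the log2 scale (limma estimate ± standard error), a 3.43-fold difference with limma adjusted p = 2.63e-09. The ethanol mean lies below 4, where values rest on the background model of the array processing, so the size of the fold depends on that model. Within days the differences were -1.86, -1.38 and -1.96 on days 1, 2 and 5.

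The 3 populations with the highest Npc2c in water also had the 3 largest decreases, a difference that contains the water value itself. On the 3 water arrays of E1 it was 5.11, 7.23 and 5.34 on days 1, 2 and 5, and on the ethanol arrays 2.70, 4.14 and 3.08. On the water arrays of R2 it was 2.89, 4.11 and 4.26, against 1.39, 2.96 and 3.01 after ethanol. The 2 water arrays of M1 read 4.78 and 6.31 on days 1 and 5, and its ethanol arrays 2.33, 3.38 and 3.47. All ethanol values of a population lay below all its water values in M1, E1 and E2, whereas in R1, R2 and M2 the ranges overlapped. Fitted per population, the response was -2.70 in M1, -2.59 in E1, -1.80 in R1, -1.30 in R2, -1.25 in E2 and -1.05 in M2.

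Npc2e lies next to Npc2d, and its protein is among those reported to bind bacterial cell wall components. Water arrays ran from 9.51 over a median of 10.25 to 11.2, with a mean of 10.26 ± 0.36 (SD, n = 17). Ethanol arrays ran from 8.61 over a median of 9.59 to 10.5, with a mean of 9.61 ± 0.54 (SD, n = 17). The ethanol array was lower in 15 of 16 pairs, and in the remaining pair, E2 on day 5, the values were 10.519 after ethanol and 10.516 after water. Npc2e fell by 0.62 ± 0.11 (1.54-fold, limma adjusted p = 5.88e-05). Within days it fell by 0.86 on day 1 and by 0.77 on day 2. On day 5 alone the difference was -0.45, with limma adjusted p = 0.0546, and did not pass.

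Npc2g, which has Npc2h as its neighbour, gave a smaller decrease. Its water arrays ran from 8.25 over a median of 8.76 to 9.06 and its ethanol arrays from 7.67 over 8.30 to 9.11. The means were 8.69 ± 0.24 and 8.34 ± 0.39 (SD, n = 17 each), and 14 of 16 pairs were lower after ethanol. The highest ethanol value, 9.11 in R2 on day 1, exceeded all water values. Npc2g fell by 0.33 ± 0.08 (1.26-fold, limma adjusted p = 0.00164). Its differences on days 1, 2 and 5 were -0.52, -0.33 and -0.15, of which only that of day 2 passed on its own (limma adjusted p = 0.0725, 0.0301 and 0.352). Leaving out day 2 also ended the call, at -0.31 and limma adjusted p = 0.0643.

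Npc2d, between Npc2c and Npc2e in the genome, rose where its neighbours fell. Water arrays ran from 5.38 over a median of 6.60 to 7.89 and ethanol arrays from 5.22 over 7.78 to 8.68. Means were 6.71 ± 0.79 and 7.35 ± 1.16 (SD, n = 17 each), and the ethanol array was higher in 14 of 16 pairs. The exceptions were both of day 1, R2 with 6.57 in water and 5.36 after ethanol and E2 with 6.31 and 5.22. The log2 difference was 0.52 ± 0.19 (1.43-fold, limma adjusted p = 0.0406). Of the 4 calls it was lost most often, in 10 of 23 alternatives, and its sign turned in 1 more. Within days the difference was -0.06 on day 1 (limma adjusted p = 0.932), 0.61 on day 2 (0.00806) and 0.96 on day 5 (0.000989).

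The Npc2d call also rested on single populations and days. Without day 5 its difference was 0.24 (limma adjusted p = 0.458), without day 2 it was 0.53 (0.132) and without R1 it was 0.37 (0.231). Adjusted p was 0.0507 without M1, 0.0935 without M2 and 0.0755 without E1. Leaving out the R2 ethanol array of day 1 gave 0.62 ± 0.18 (limma adjusted p = 0.00804), a choice made after seeing the data. Npc2d thus passed with all arrays, whereas its day 1 estimate of -0.06 (limma adjusted p = 0.932) showed no change in either direction. The day 1 pairs were 1.395 in R1, 0.44 in E1 and 0.16 in M1, against -1.21 in R2 and -1.09 in E2.

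The other members did not pass in this comparison. Npc1a, the endosomal sterol transporter, was 10.14 ± 0.12 in water and 10.21 ± 0.12 after ethanol (SD, n = 17 each), a log2 difference of 0.07 ± 0.04 with limma adjusted p = 0.243. Npc2a was 10.22 ± 0.18 and 10.09 ± 0.22, a difference of -0.13 ± 0.07 with limma adjusted p = 0.197, and lower after ethanol in 11 of 16 pairs. Npc2b was 9.46 ± 0.20 and 9.54 ± 0.21, a difference of 0.10 ± 0.05 with limma adjusted p = 0.119. For these 3 genes, which are the ones tied to sterol trafficking in flies, the 95% intervals of the difference ran from -0.02 to 0.15, from -0.28 to 0.02 and from 0.0009 to 0.19. Npc2f differed by 0.08 ± 0.07 and Npc2h by -0.09 ± 0.08, with limma adjusted p = 0.447 and 0.431.

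Markers of other tissues moved with the soaking. Marker signals were added on the linear scale and the log2 of the sum was taken, so the strongest markers weigh most. For 5 fat body markers this summed level averaged 10.6 in water and 11.6 after ethanol, and ran from 9.52 to 11.05 and from 10.9 to 11.9. Only Gbs-70E, a glycogen-binding protein phosphatase subunit, and Lsd-1, a lipid droplet protein, were tested, and both rose, by 1.49 and 0.96. Lsd-1, at 10.1 in water against 8.46 for Gbs-70E, weighs most in that sum. The larval serum protein gene Lsp2 and the fat body protein genes Fbp1 and Fbp2 were below 4 on all arrays. Of 9 tested haemocyte markers 6 fell and none rose. The largest fall was that of PPO1, a prophenoloxidase, by 1.41. Its means were 4.25 in water and 2.84 after ethanol, near the floor, so that size depends on the background model. The other markers called lower fell by between 0.35 (crq) and 0.77 (NimC1). The summed haemocyte level ran from 12.2 to 12.5 in water and from 11.9 to 12.3 after ethanol. Of 8 midgut markers 2 rose and 2 fell, and their sum averaged 14.4 in water and 14.5 after ethanol. Of 4 Malpighian tubule markers 1 fell, and of 3 ring gland markers 1 rose and 1 fell. The part of these tissues in the Npc changes was not tested.

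**Figure D2:**
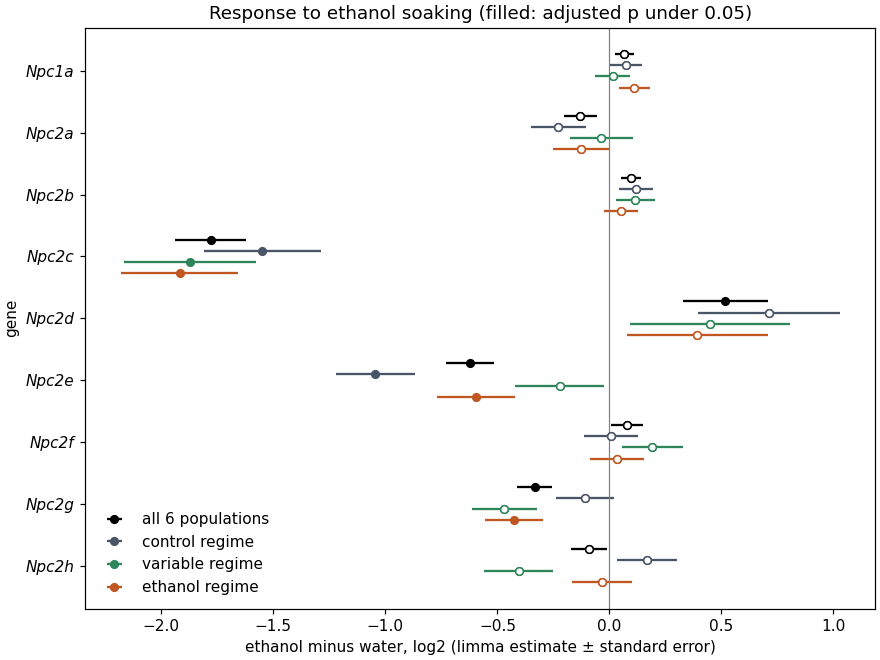
Ethanol minus water on the log2 scale (horizontal axis, limma estimate with bars of 1 standard error) for the 9 Npc genes (vertical axis), over all populations and within each regime. Filled points passed at an adjusted p under 0.05; Npc2c lies between -1.92 and -1.55 in each regime, and Npc2e ranges from -1.05 in the control to -0.22 in the variable regime.

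Within regimes, Npc2c was lower after ethanol in each. In all comparisons within a regime arrays are the replicates, so the calls hold for the populations measured only. Controls had 2 of 9 members called, both lower, beside 18.1% of all probe sets in either direction and 10.1% lower. Npc2c fell by 1.55 ± 0.26 (limma adjusted p = 0.00012), from 4.34 ± 1.02 to 2.79 ± 0.87 (SD, n = 6 each). Npc2e fell by 1.05 ± 0.18 (limma adjusted p = 0.000119). Its 6 water arrays ran from 9.73 over a median of 10.3 to 11.2 and its 6 ethanol arrays from 8.61 over 9.23 to 10.3, so the groups overlap. Without day 5 both calls held, at -1.34 for Npc2c and -1.07 for Npc2e (limma adjusted p = 0.00173 and 0.00117), and interchanging the labels leaves control arrays as they are. For Npc2d the difference was 0.71 ± 0.32 (limma adjusted p = 0.128), it was 0.50 without day 5 (0.389), and without the R2 ethanol array of day 1 it was 0.99 ± 0.30 and passed (0.0246).

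In the variable regime 1 member was called, beside 6.84% of all probe sets. Npc2c fell by 1.87 ± 0.30 (limma adjusted p = 0.000187), from 4.27 ± 1.39 to 2.95 ± 0.55 (SD, n = 5 each). Without day 5 the difference was -1.90, a fit that leaves 1 water array in M1 and 1 ethanol array in M2. The call held with labels interchanged, at -1.80 (limma adjusted p = 1.16e-05). That call was lost without M1, where the difference was -1.04 (limma adjusted p = 0.262). Npc2g differed by -0.47 ± 0.15 with limma adjusted p = 0.0508. Its 5 water arrays were 8.83 and 8.25 in M1 and 8.62, 8.81 and 8.77 in M2, and its ethanol arrays 7.86, 7.67 and 8.24 in M1 and 8.27 and 8.41 in M2. Ethanol values lay below water values within each population. With the day 5 labels interchanged Npc2g passed, at -0.54 and limma adjusted p = 0.00838. Without day 5 its difference was -0.70, on the same few arrays. Npc2e differed by -0.22 ± 0.20 (limma adjusted p = 0.588), by -0.34 without day 5 and by -0.27 with labels interchanged (limma adjusted p = 0.406 for the last).

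The ethanol regime had 3 of 9 members called, all lower, beside 8.43% of all probe sets in either direction and 3.88% lower. Npc2c fell by 1.92 ± 0.26 (limma adjusted p = 1.69e-05), from 4.86 ± 1.41 to 2.94 ± 0.75 (SD, n = 6 each). Npc2e fell by 0.60 ± 0.18 (limma adjusted p = 0.0332), and Npc2g fell by 0.42 ± 0.13 (limma adjusted p = 0.0383). The last 2 of these calls were lost without day 1, day 2, E1 or E2, with limma adjusted p between 0.122 and 0.306. Npc2g was also lost without day 5, at -0.49 and limma adjusted p = 0.0552. Without day 5, Npc2c was at -1.90 and Npc2e at -0.79, and both passed (limma adjusted p = 0.000153 and 0.0171). With labels interchanged all 3 passed, at -1.92 for Npc2c, -0.57 for Npc2e and -0.39 for Npc2g (5.04e-07, 0.0252 and 0.0316).

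Whether the regimes responded differently was tested with the populations as replicates. None of the 9 members, and 0% of all probe sets, passed limma's adjusted threshold in any of the 3 contrasts. At an unadjusted p under 0.05 there were 1 member for ethanol against control, 3 for variable against control and 2 for ethanol against variable, beside 397, 533 and 258 of all probe sets. The first 2 contrasts share the control populations. Npc2e had responses of -0.94 in R1, -1.15 in R2, -0.17 in M1, -0.27 in M2, -0.60 in E1 and -0.59 in E2, so the 3 regimes did not overlap. The share of all probe sets without overlap is not given here, and such an order can arise by chance. Its response was smaller in the variable regime than in the control by 0.82 ± 0.14, with an unadjusted p = 0.000576 and limma adjusted p = 0.855. Without day 5 that value was 0.72 ± 0.21 and with day 5 labels interchanged 0.78 ± 0.13.

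Npc2h, whose protein is also reported to bind bacterial products, had responses of 0.22 in R1, 0.11 in R2, -0.45 in M1, -0.36 in M2, -0.08 in E1 and 0.01 in E2. Variable minus control was -0.57 ± 0.11 (unadjusted p = 0.0016, limma adjusted p = 0.855). Without day 5 it was -0.50 ± 0.17, and with the day 5 labels interchanged -0.35 ± 0.12. Its values ran from 3.94 to 5.13 over all arrays, close to the level of 4, and 2 of 5 ethanol arrays of the variable regime were below it.

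Selection regime itself was compared with 2 populations per regime, each population's level being averaged over both soaks and adjusted for day. None of the 9 members passed, beside 0% of all probe sets, in any of the 3 contrasts. At an unadjusted p under 0.05 there were 1, 0 and 0 members for ethanol minus control, variable minus control and ethanol minus variable, beside 925, 720 and 128 of all probe sets. The first 2 share the control populations. The median log2 differences of the members were -0.05, -0.03 and -0.02, and those of all probe sets 0.01, 0.01 and 0.00.

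Npc2f was the member with the smallest p between regimes. Its day-adjusted levels were 9.77 in R1, 9.67 in R2, 9.57 in M2, 9.54 in M1, 9.44 in E2 and 9.36 in E1, so the 3 regimes did not overlap. For levels too, the share of all probe sets without overlap is not given here. Ethanol minus control was -0.32 ± 0.07, with an unadjusted p = 0.00524 and limma adjusted p = 0.48. Variable minus control was -0.16 ± 0.07 (limma adjusted p = 0.705). The first value was -0.40 ± 0.11 without day 5 and -0.32 ± 0.08 with labels interchanged, and the second -0.17 ± 0.11 and -0.18 ± 0.08.

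For Npc2d, ethanol minus control was -0.72 ± 0.45, with limma adjusted p = 0.653. Its levels were 7.67 in R1, 7.35 in M1, 7.20 in E1, 7.17 in R2, 6.43 in M2 and 6.21 in E2, so populations of different regimes lie between each other. The difference was -1.04 ± 0.50 without day 5 and -0.76 ± 0.44 with labels interchanged. Npc2g levels were 8.91 in R2, 8.55 in E2, M2 and R1, 8.29 in E1 and 8.21 in M1, and the differences from control were -0.31 ± 0.19 in the ethanol and -0.35 ± 0.19 in the variable regime (limma adjusted p = 0.633 and 0.741). Without day 5 these were -0.43 and -0.35, and with labels interchanged -0.38 and -0.26. Npc1a levels lay between 10.15 and 10.23 and Npc2a levels between 10.08 and 10.23. For Npc2a the control populations, 10.08 each, were the lowest, and ethanol minus control was 0.12 ± 0.05 with limma adjusted p = 0.538, 0.14 without day 5 and 0.16 with labels interchanged. Had arrays been counted as replicates in place of populations, Npc2d, Npc2f and Npc2g would have passed for ethanol minus control (limma adjusted p = 0.0356, 0.0131 and 0.0258) and Npc2g for variable minus control (0.0243). That count takes no account of the spread between populations of a regime.

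Populations of the same regime differed in several members. Here arrays are the replicates, so the differences hold for these populations only. In the control regime 2 of 9 members were called beside 8.09% of all probe sets, in the variable regime 1 beside 3.67% and in the ethanol regime 2 beside 11.0%. The plot of sister populations shows the 4 members with the clearest differences.

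Npc2c was called in all 3 pairs. Its day-adjusted levels were 4.60 in E1, 4.41 in M1 and 4.03 in R1, and 3.20 in E2, 3.10 in R2 and 2.90 in M2. All 3 populations numbered 1 thus lay above all those numbered 2, an order whose share among all probe sets is not given here. R2 minus R1 was -0.92 ± 0.26 (limma adjusted p = 0.0263), M2 minus M1 was -1.51 ± 0.30 (0.00263) and E2 minus E1 was -1.40 ± 0.26 (0.000763). Only 2 of 6 arrays of R2, 1 of 5 of M2 and 1 of 6 of E2 reached 4, so the sizes of these differences rest on the background model. Without the R2 ethanol array of day 1, R2 minus R1 was -0.85 and did not pass (limma adjusted p = 0.0781). Leaving out day 2 ended the call in each pair, with limma adjusted p between 0.0627 and 0.0868, and leaving out day 1 ended it in the control (0.295) and variable (0.0581) pairs. Water arrays alone showed the spread most plainly, with 4.93 ± 1.01 in R1 and 3.75 ± 0.75 in R2, 5.89 ± 1.16 in E1 and 3.82 ± 0.61 in E2 (SD, n = 3 each).

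Npc2b, which acts with Npc2a in sterol homeostasis, was higher in R2 than in R1 by 0.31 ± 0.08 (limma adjusted p = 0.0098). Its 6 arrays of R1 ran from 9.05 over a median of 9.39 to 9.60 and those of R2 from 9.49 over 9.63 to 9.96. The call was lost without day 1 (limma adjusted p = 0.195) or day 2 (0.106). M2 minus M1 was 0.21 ± 0.09 (0.25) and E2 minus E1 was 0.21 ± 0.08 (0.0847). Npc2d was lower in E2 than in E1, with a difference of -0.997 ± 0.32 (limma adjusted p = 0.0416), while M2 minus M1 was -0.92 ± 0.36 (0.195) and R2 minus R1 was -0.50 ± 0.32 (0.431). The Npc2d call was lost without day 2 (-0.57, limma adjusted p = 0.57), without day 5 (0.105) and with day 5 labels interchanged (-0.87, 0.0521). Over the family, 4 of 9 members (44.4%) had the same sign in all 3 pairs, beside 45.3% of all tested probe sets. Over the 3 pairs as 1 contrast, a comparison chosen after seeing the data, 4 of 9 members were called beside 18.9% of all probe sets.

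**Figure D3:**
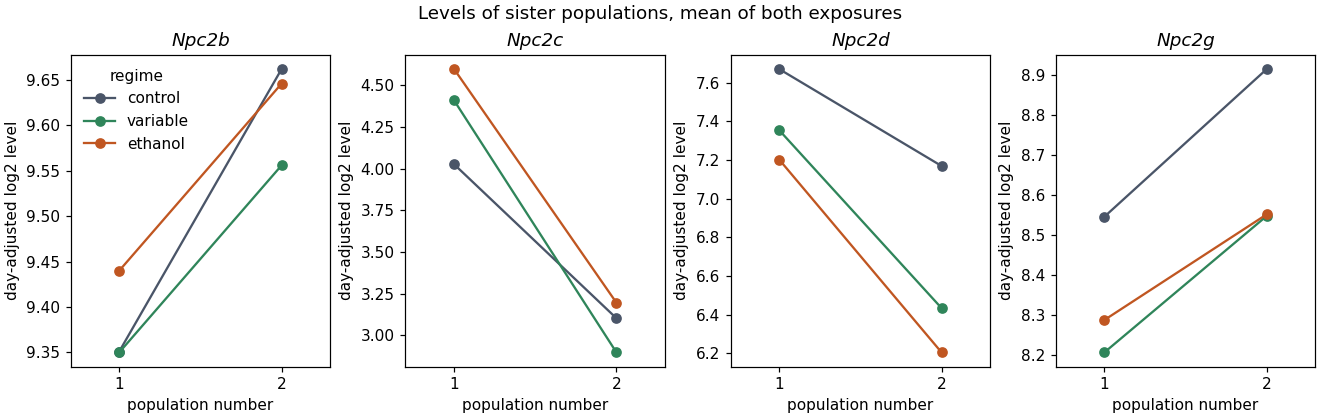
Day-adjusted log2 levels (vertical axes, scaled separately) of Npc2b, Npc2c, Npc2d and Npc2g in the populations numbered 1 and 2 of each regime (horizontal axes), averaged over both soaks. The 4 genes were chosen after their values were seen; Npc2c runs from 4.60 in E1 to 2.90 in M2.

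Extraction day went with differences in up to 6 members. Arrays are the replicates here too and each day is 1 extraction block, so the differences hold for these 3 blocks only. Between days 1 and 2, 3 of 9 members were called, all higher on day 2, beside 11.2% of all probe sets in either direction and 5.78% higher. Between days 1 and 5 it was 6 of 9, 5 higher and 1 lower, beside 43.2% of all probe sets (20.6% higher and 22.6% lower). The median difference of the members between days 5 and 1 was 0.21 and that of all probe sets -0.01.

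Between days 5 and 1 Npc2d had the largest shift of the members. Its 11 arrays of day 1 ran from 5.22 over a median of 6.31 to 7.76, the 11 of day 2 from 5.38 over 7.48 to 8.68 and the 12 of day 5 from 6.60 over 7.88 to 8.68. It was higher than on day 1 by 1.01 ± 0.24 on day 2 and by 1.59 ± 0.23 on day 5 (limma adjusted p = 0.00975 and 5.74e-06). Npc2f ran from 8.76 over 9.11 to 9.76 on day 1, from 9.32 over 9.68 to 9.97 on day 2 and from 9.55 over 9.83 to 10.2 on day 5. Its differences were 0.48 ± 0.09 and 0.65 ± 0.09 (limma adjusted p = 0.00368 and 1.78e-06). Npc2c was higher by 1.24 ± 0.20 on day 2 and 1.18 ± 0.19 on day 5 (limma adjusted p = 0.00156 and 2.3e-05). Its mean was 3.02 on day 1, with 2 of 11 arrays at 4 or more, and 3.95 on day 2, so these sizes too rest on the background model.

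Npc2e, Npc2b and Npc1a differed between days 5 and 1. Npc2e was higher by 0.61 ± 0.13 (limma adjusted p = 0.000419) and Npc2b by 0.21 ± 0.06 (0.00303). Npc1a fell by 0.15 ± 0.05 (limma adjusted p = 0.02), from 10.25 ± 0.15 (SD, n = 11) to 10.10 ± 0.04 (SD, n = 12). Npc2a, Npc2g and Npc2h did not pass on either day. The summed level of the 8 midgut markers also rose with day, from 14.0 to 14.4 on day 1, 14.2 to 14.7 on day 2 and 14.5 to 14.8 on day 5. Of these 8 markers 6 were higher and 1 lower on day 5 than on day 1. Mal-A1, a maltase gene, and mex1 were higher by 1.42 and 0.66, dve differed by -0.21 (limma adjusted p = 0.0157), and nub, at 0.01, did not pass. Of 9 haemocyte markers 4 were higher and 2 lower on day 5. Across the 34 arrays the midgut sum correlated with Npc2f at 0.88 and with Npc2d at 0.83, and at 0.62 and 0.69 after group and day means were removed. The first values were the largest among all members and tissue sums, and were picked for that. Other tissue sums reached similar sizes once means were removed. Fat body stood at 0.665 with Npc2g and at 0.51 with Npc2f, and Malpighian tubule at -0.58 with Npc2a. The markers with the highest levels, yip7 and alphaTry (means of 12.9 and 12.4 on water arrays), weigh most in the midgut sum. The part of these markers in the day differences was not tested.

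**Figure D4:**
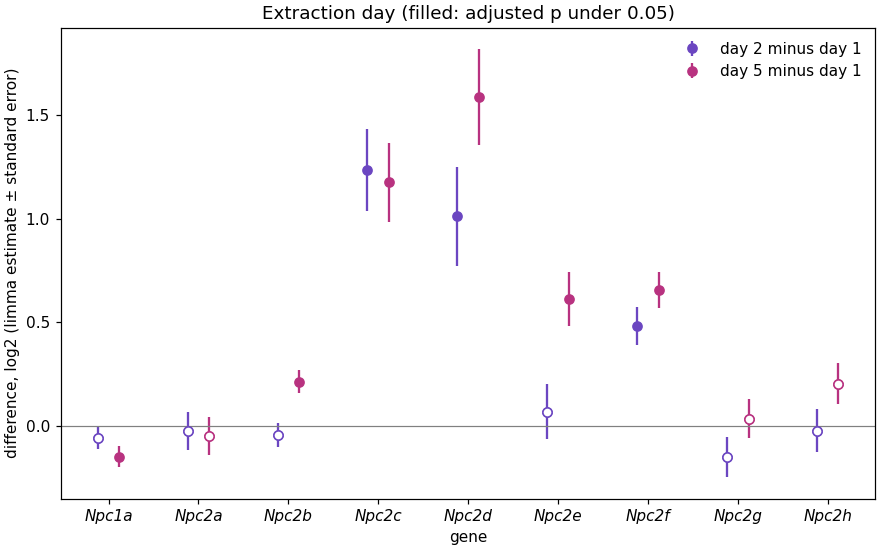
Log2 difference between extraction days (vertical axis, limma estimate with bars of 1 standard error) for the 9 Npc genes (horizontal axis). Filled points passed at an adjusted p under 0.05; Npc2d reaches 1.59 on day 5, and Npc1a is the called member that is lower, at -0.15.

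The members thus varied along different axes. The share of the sum of squares over the 34 arrays that each term took when added last was largest for exposure in Npc2c (48.5%) and Npc2e (34.5%), for day in Npc2f (59.7%) and Npc2d (42.1%) and for population in Npc2g (41.5%) and Npc2b (40.4%). Npc1a and Npc2a were left mostly to the residual, at 51.3% and 73.7%, and their SD over all arrays was 0.12 and 0.21 on the log2 scale. Npc2h was split between population (32.7%), residual (35.7%), the interaction of exposure and population (15.6%) and day (13.2%). Population with 6 levels, its interaction with exposure, and day with 3 levels can take more by chance than exposure. Shares are therefore not comparable between terms without regard to this.

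**Figure D5:**
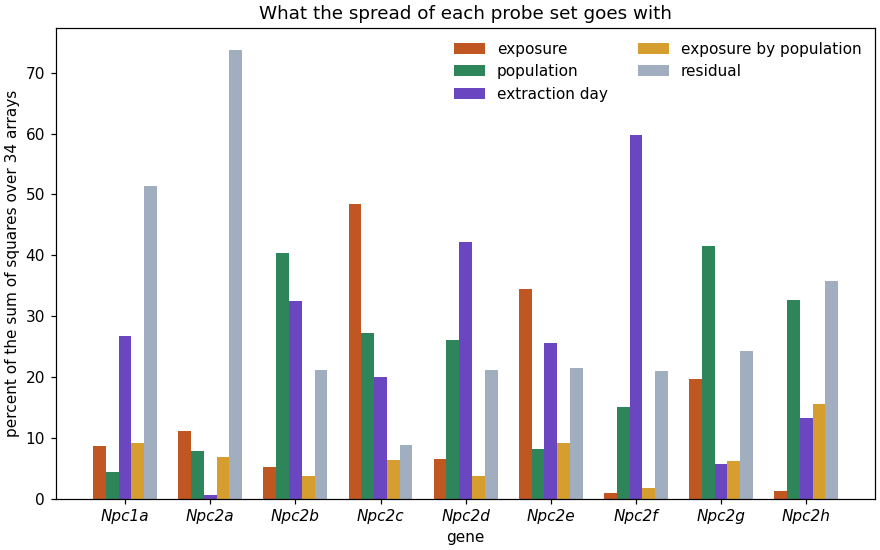
Percent of the sum of squares over 34 arrays (vertical axis) taken by exposure, population, extraction day and the interaction of exposure and population, each added last, and by the residual, for the 9 Npc genes (horizontal axis). Each share is computed separately, and the design is not balanced, so shares need not fill the whole.

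Neighbouring members had estimated responses of differing sign or size, and differences between members were not tested. In the gene table Npc2e, Npc2d and Npc2c are neighbours, with 0 protein-coding genes starting between them, and Npc2g and Npc2h are neighbours in the same way. Among the first 3, the log2 responses to ethanol were -0.62, 0.52 and -1.78, and in the second group -0.33 and -0.09. Over the 36 pairs of members, correlations of log2 values across the 34 arrays ran from -0.59 to 0.78 with a median of 0.09. These arrays share populations, soaks and days, so the correlations describe the set and carry no test. The highest was between Npc2d and Npc2f, which are not neighbours. After group and day means were removed, Npc2d and Npc2f stood at 0.71. Npc2d and Npc2e went from 0.22 to 0.68 and Npc2e and Npc2f from 0.37 to 0.66, while Npc2c and Npc2d went from 0.23 to 0.15. The R2 ethanol array of day 1 was low for Npc2d (5.36), Npc2e (8.61) and Npc2f (8.76) alike. Its part in these values was not tested.

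Genes outside the family with the most similar pattern were taken as the 3 with the highest correlation over the 34 arrays. For Npc2c these were CG31089 (0.90), CG6283 (0.86) and CG7582 (0.86), and for Npc2d CG7231 (0.90), Ugt37C2 (0.88) and CG4607 (0.85). Npc2e was closest to CG14120 (0.85), CG7968 (0.83) and CG3939 (0.82). Npc2f went with Tsp29Fb (0.89), CG33514 (0.88) and the trypsin gene alphaTry (0.87), the last of which is one of the midgut markers. Npc2g was closest to CG6503 (0.79), Npc2b to CG31313 (0.80), Npc1a to sNPF-R (0.77), Npc2a to wuho (0.71) and Npc2h to dj-1beta (0.58).

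Other genes of sterol handling responded to ethanol in small numbers, to be read beside the 15.2% of all probe sets that were higher and the 16.0% that were lower. Among 12 tested genes of sterol regulation and lipid transfer 1 rose and 1 fell, with a median log2 difference of -0.01. Hr96, a nuclear receptor that controls genes of sterol uptake, including Npc1b, rose by 0.18 ± 0.06 (limma adjusted p = 0.0207), and Start1, a START-domain protein, fell by 0.19 ± 0.06 (0.00964). The intestinal lipase and sterol ester hydrolase gene mag differed by -0.50 ± 0.26 and did not pass (0.144). None of the 3 tested genes for other proteins with a sterol-sensing domain passed, with a median of 0.12, and 2 of them had an unadjusted limma p under 0.05. Of 6 mevalonate pathway genes, which in insects serve isoprenoids and not sterols, 3 rose and 0 fell, with a median of 0.13. They were Fpps, by 0.37 ± 0.05 (4.7e-06), Hmgs, by 0.23 ± 0.05 (0.00206), and Idi, by 0.16 ± 0.04 (0.00157).

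Of 7 tested genes of ecdysteroid synthesis and turnover 0 rose and 3 fell, with a median of -0.20. Cyp18a1, which breaks ecdysteroids down, fell by 0.95 ± 0.10 (limma adjusted p = 3.26e-08), the synthesis gene spok fell by 0.45 ± 0.08 (0.000137) and shd, which makes the active hormone, fell by 0.44 ± 0.09 (0.000698). A further 6 genes of that list were below 4 on all arrays. Of 6 lipoprotein transport genes cv-d rose by 0.24 ± 0.05 (0.000235) and Mtp, the microsomal lipid transfer protein, fell by 0.40 ± 0.08 (0.000274). Of 13 lysosomal genes 1 rose and 2 fell, with a median of -0.01. CtsF, a cathepsin gene, rose by 0.14 ± 0.04 (0.0057), Cln3 fell by 0.41 ± 0.05 (7.93e-07) and beta-Man fell by 0.22 ± 0.07 (0.0161).

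Among 13 tested genes of peptidoglycan recognition and the Imd immune pathway 1 rose and 2 fell, with a median of 0.02. The peptidoglycan amidase gene PGRP-SC2 fell by 1.52 ± 0.15 (limma adjusted p = 1.41e-08), from 11.3 to 9.82. The Imd inhibitor gene pirk fell by 0.51 ± 0.08 (1.86e-05), and PGRP-LB, another amidase gene, rose by 0.22 ± 0.06 (0.00883).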

How the data were processed

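Expression was measured on Affymetrix arrays, hybridised with labelled cDNA amplified from RNA of pooled larvae. Each deposited value is a log2 level of 1 probe set. Per the submitters' processing notes, the authors used GCRMA and affy, whose versions are not given. GCRMA corrects background by probe GC content, so values near the floor depend on that model.

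With R 4.3.3 and limma 3.58.1, the population-by-exposure means plus extraction day were fitted to 34 arrays (eBayes with intensity trend, two-sided, Benjamini-Hochberg over 9729 probe sets, 0.05). Probe sets needed a value of 4 or more on at least 5 arrays. Regimes and their interactions were tested by limma on 6 population values. Day was kept as a block because the labels describe extraction blocks. The mean correlation of deviations from group means was 0.394, 0.184 and 0.423 within days 1, 2 and 5 and -0.196 across days. Separate cultures for the arrays of a population are not stated, and p-values then measure the spread between these RNA samples, and the number of arrays limits the precision.

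Genes were named through the platform annotation, updated by RefSeq identifiers. Members, lists and tests were chosen with earlier results of these data known. Named genes were all members, the 3 outside genes closest to each by correlation, up to 4 genes per pathway list with the smallest p, Hr96 and mag. Alternatives were other filters, scalings and moderation, no block, interchanged day 5 labels, arrays as replicates and each day or population left out. The fits were tested on simulated data. No sequence was used.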

Additional observations from a re-analysis of the deposited data

Results flagged for a closer look

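Among the 9 members in 6 groups of regime and soak, 54 groups in all, 4 values on 3 arrays lay far from the rest of their group by Dixon's criterion, which chance meets in about 1 of 20 groups of like samples. These groups pool 2 populations and 3 days, so that share need not hold here, and Npc2d and Npc2f were lower on day 1 in the fit. The ethanol array of R2 on day 1 was the lowest of the control ethanol arrays for both Npc2d, at 5.363 with the nearest at 7.759, and Npc2f, at 8.762 with the nearest at 9.76. It is the array that lay closest to E2 over all probe sets. The water array of E2 on day 2 was low for Npc2e, at 9.511 with the nearest of the ethanol regime's water arrays at 10.246. The ethanol array of E2 on day 5, from the set whose day 5 labels stood against the data, was high for Npc2h, at 4.94 with the nearest at 4.468.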

How the results depend on the processing

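Limits: Npc2c lies near the floor, at 4 or more on 13 of 34 arrays, which bears on its exposure, population and day differences alike, regime tests rest on 2 populations each, and day 5 labels of 2 regimes are in doubt. Over 144 results of the 9 members and 16 comparisons, 28 passed as reported. Their 361 alternative values kept direction and call in 310 cases and lost the call in 50. In 1 case the sign turned, Npc2d for exposure on day 1 alone, at -0.0604. Of 1596 alternative values of results that did not pass, 22 passed. The exposure call of Npc2c held in 22 of 22 alternatives, and all day calls held in the alternatives run.

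Counts of members called changed by over 1.5 times as follows. For exposure over all populations (4) it was 2 on day 1 alone and 2 on day 5 alone, and leaving out a day or population gave 2 to 4. For controls (2) it was 1 with a mean of at least 6. For the variable regime (1) it was 2 with array medians centred, robust moderation, interchanged labels, the day 5 arrays of the selected regimes left out or the R2 ethanol array of day 1 left out, the last pair chosen after seeing the data, and 0 with no replicate block; leave-one-out gave 0 to 2. For the ethanol regime (3) it was 1 with no replicate block, and leave-one-out gave 1 to 2. Arrays as replicates gave 3 for ethanol and 1 for variable minus control. R2 minus R1 (2) gave 1 with a mean of at least 6, 0 with no replicate block and 0 to 2 leaving out a day. M2 minus M1 (1) gave 0 with that filter, 0 with no replicate block, 2 with interchanged labels and 0 to 2 leaving out a day. E2 minus E1 (2) gave 1 with no filter, a mean of at least 6, no trend or robust moderation, 0 with no replicate block and 0 to 2 leaving out a day. Numbered 2 minus 1 (4) gave 2 to 4 leaving out a day. With no replicate block Npc2d for exposure had an adjusted p of 0.188 in limma.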

Other observations

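The populations numbered 2 were compared with those numbered 1 across the 3 regimes after their values had been seen, with arrays as the replicates. Npc2c differed by -1.28 ± 0.16 (limma adjusted p = 1.63e-06) and Npc2d by -0.81 ± 0.19 (0.00336), both lower in the populations numbered 2. Npc2g differed by 0.32 ± 0.08 (0.00365) and Npc2b by 0.24 ± 0.05 (0.000446), both higher there. Each of these 4 had the same sign in all 3 regimes, as had 45.3% of all tested probe sets. The contrast averages the 3 pairs and so favours such genes, which makes their shared sign no separate evidence. Npc2h differed by 0.20 ± 0.08 and did not pass (0.0966). Without day 2, Npc2d and Npc2g no longer passed (limma adjusted p = 0.131 and 0.157). What the numbers stand for beyond naming the populations is not given in the labels.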
